A study of Mus musculus with 4 samples.

Results

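The histone genes of the mouse were followed in oocytes at the germinal vesicle stage, with and without knockdown of Parp12. They were taken from the count table by symbol, as every gene whose name begins with Hist1h to Hist4h, H1f, H2af or H3f, leaving out names that end in a numbered pseudogene suffix. This gave 89 of 55453 genes. Of these, 70 carry a Hist symbol and are called the clustered class here, with 56 on chromosome 13, 10 on chromosome 3, 3 on chromosome 11 and 1 on chromosome 6. The other 19 carry an H1f, H2af or H3f symbol and are called the variant class. The annotation (GENCODE release M21, build mm10) lists 6 of the 89 as pseudogenes, 3 in each class, and H3f3aos as an antisense RNA.

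The study sequenced messenger RNA from oocytes at that stage, in which meiosis is arrested ahead of maturation, in 2 control libraries (genotype WT) and 2 Parp12 knockdown libraries. All 4 came from oocytes taken directly from the ovary. PARP12 is an enzyme that attaches ADP-ribose to proteins, and the comparison asks what changes in the transcriptome when it is depleted. The sources used here do not give how the knockdown was made, the strain and age of the mice, or whether oocytes of several animals were pooled.

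Histones package DNA into nucleosomes, each a core of H2A, H2B, H3 and H4 with a linker histone H1 outside it. The clustered genes supply new chromatin during DNA replication, and most of their messenger RNAs end in a conserved stem-loop, bound by the protein SLBP, in place of a poly(A) tail. Most variant genes are transcribed outside replication into messenger RNAs with poly(A) tails, and H2afx is known for both kinds of message. Per the labels' protocols, messenger RNA was isolated here on poly(A) beads, so a transcript without a tail was measured only as far as it was retained. The clustered counts below are therefore levels of poly(A)-selected RNA, not of all histone RNA. An oocyte at this stage does not replicate DNA, yet it stores RNA and protein for the embryo and carries its own linker histone, encoded by H1foo.

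Total counts were 45230773 for control 1, 40938363 for control 2, 42576499 for knockdown 1 and 35805122 for knockdown 2. Levels are given as CPM (counts per 1000000 counts of the library) or, where genes are compared with each other, as CPM per kb of exon length. A gene at 0 counts can have a level of up to 3 counts, or 0.0663 to 0.0838 CPM depending on the library. The targeted gene, Parp12, had 14279 and 9419 counts in control libraries against 32 and 86 after knockdown, so the level left after knockdown was 0.578% of control. All 13 oocyte markers had counts, with a sum of 24707 to 25529 CPM in the controls and 26145 to 26742 CPM in the knockdowns. Of 16 granulosa and cumulus markers, 8 were at 0 in all 4 libraries, among them Amh and Foxl2, and the list summed to 155.5 to 165.9 CPM in the controls and 134.6 to 153.9 in the knockdowns. The highest of this list were Nr5a2, at 90.8 to 117.4 CPM over the 4 libraries, Cyp19a1, at 23.8 to 29.3, and Kitl, at 13.7 to 21.6. The sum of 12 theca and stroma markers was 3.29 to 6.45 CPM against 2.58 to 3.38, with 3 at 0. Blood, immune and endothelial markers, 10 in number with 4 at 0, summed to 110.8 to 113.6 CPM against 106.8 to 111.2. The highest of them was Pecam1, at 91.6 to 101.3 CPM over the 4 libraries. These sums differ slightly between the groups, and their part in the values below was not tested.

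Histone counts in these poly(A)-selected libraries fell almost entirely on variant genes. The 89 genes together took 0.384% and 0.377% of all counts in the controls, against 0.370% and 0.372% after knockdown. The variant class held 98.1% ± 0.0839 (SD, n = 2) of those histone counts in the controls and 98.0% ± 0.298 (n = 2) in the knockdowns. Corrected for exon length, the share was 97.4%, 97.0%, 97.1% and 97.2% in control 1, control 2, knockdown 1 and knockdown 2, the order in which 4 values are given from here on. H1foo alone took 77.7%, 77.4%, 76.6% and 78.5% of the histone counts. With H1foo set aside, the variant class still held 90.6% to 91.7% of the rest in every library.

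Summed over the variant class, the level was 3773, 3693, 3614 and 3654 CPM. Both knockdown libraries lay below both controls, with means of 3733 ± 56.6 and 3634 ± 28.1 CPM (SD, n = 2 each). Without H1foo the variant sum was 786.7, 777.1, 784.9 and 734.8 CPM, and the groups overlapped. Among all tested genes taken singly, 16.8% had both knockdowns below both controls. The clustered class summed to 72.2, 75.2, 81.6 and 66.5 CPM, and there the groups overlapped. In bulk samples of this kind, fewer cells of a type and less RNA per cell cannot be told apart. An exact permutation test of 2 libraries against 2 cannot give a p below 0.33, so none was run on these sums.

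**Figure D1:**
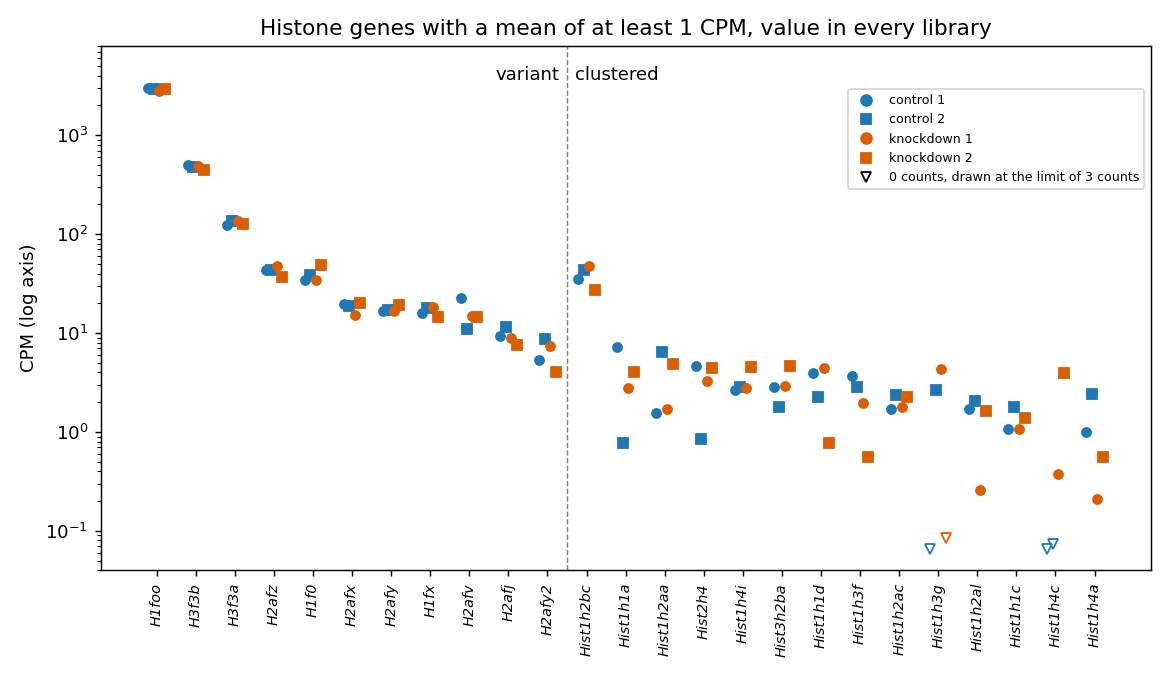
Level in CPM (log axis) of the 25 histone genes with a mean of at least 1 CPM, 11 variant and 14 clustered, with a point for each of the 4 libraries; open triangles mark 0 counts, drawn at the level of 3 counts. H1foo stands between 2829 and 2986 CPM in every library, Hist1h2bc is the highest clustered gene at 27.4 to 47.6 CPM, and the points of the other clustered genes spread widely below 10 CPM.

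Counts of the linker histones were led by the oocyte form. H1foo (ENSMUSG00000042279.13, chr6:115944938-115950236, plus strand, mm10) encodes the H1 subtype known from the egg and early embryo. Its level was 2986, 2916, 2829 and 2919 CPM, with the highest value in control 1 and the lowest in knockdown 1 and with overlapping groups. It was the 10th to 12th most abundant gene of the table in each library. Its log2 fold change, knockdown over control, was -0.04 (SE 0.05, 95% interval -0.15 to 0.07; edgeR quasi-likelihood test, adjusted p 0.949). The interval lies well inside a 2-fold change in either direction.

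The other linker variants were far lower. H1f0, the H1 of cells that have stopped dividing, stood at 34.0, 38.4, 34.7 and 48.4 CPM, with knockdown 2 the highest and overlapping groups. H1fx, a divergent H1 found in many tissues, stood at 15.9, 18.0, 18.3 and 14.7 CPM. H1fnt, an H1 of spermatids, had 0 counts in all 4 libraries. Per kb of exon, H1foo exceeded H1f0 by 140-fold ± 14.3 in the controls and 121-fold ± 25.5 in the knockdowns (SD, n = 2 each). It exceeded H1fx by 177-fold ± 18.6 and 179-fold ± 31.8. H1foo made up 98.3% to 98.5% of all H1 signal per kb in every one of these poly(A)-selected libraries.

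The clustered H1 genes, which encode the somatic H1 subtypes and the testis form H1t, summed to 10.95, 2.50, 5.03 and 7.18 CPM per kb. Hist1h1a had the highest mean, at 7.21, 0.78, 2.77 and 4.02 CPM, although it was not the highest in control 2 or knockdown 1, and the controls held both the highest and the lowest value. Hist1h1d stood at 3.94, 2.27, 4.46 and 0.78 CPM, and Hist1h1c at 1.08, 1.78, 1.08 and 1.40 CPM. Hist1h1e had 52 counts in knockdown 2 and 0 in the other 3 libraries. Hist1h1b and the testis gene Hist1h1t had 0 counts throughout.

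The promoters of H1foo and of the most abundant clustered H1 gene, Hist1h1a, are shown with that of H3f3b, the leading H3 variant, because the 3 genes stand for the oocyte, replication and replication-independent types. Each is 300 bases long, 250 before and 50 after the annotated start, from RefSeq on GRCm38.p6, read 5′ to 3′ on the strand of the gene. Capitals mark the CCAAT box (CCAAT or, on the other strand, ATTGG) and the TATA box (TATAAA or TTTATA). The H1foo window is chr6:115944681-115944980 (plus), that of H3f3b chr11:116024455-116024754 (minus) and that of Hist1h1a chr13:23763418-23763717 (plus).
H1foo: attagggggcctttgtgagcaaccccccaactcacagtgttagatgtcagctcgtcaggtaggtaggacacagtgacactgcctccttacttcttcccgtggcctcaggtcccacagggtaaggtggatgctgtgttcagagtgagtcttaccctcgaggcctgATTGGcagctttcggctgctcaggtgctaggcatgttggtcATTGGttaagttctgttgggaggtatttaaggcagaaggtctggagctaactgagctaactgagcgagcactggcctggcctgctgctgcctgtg
H3f3b: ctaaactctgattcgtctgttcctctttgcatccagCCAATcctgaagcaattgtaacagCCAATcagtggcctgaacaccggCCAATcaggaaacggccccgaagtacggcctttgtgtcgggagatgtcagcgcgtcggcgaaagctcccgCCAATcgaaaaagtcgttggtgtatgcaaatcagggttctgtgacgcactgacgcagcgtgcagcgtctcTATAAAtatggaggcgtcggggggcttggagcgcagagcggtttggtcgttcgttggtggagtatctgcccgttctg
Hist1h1a: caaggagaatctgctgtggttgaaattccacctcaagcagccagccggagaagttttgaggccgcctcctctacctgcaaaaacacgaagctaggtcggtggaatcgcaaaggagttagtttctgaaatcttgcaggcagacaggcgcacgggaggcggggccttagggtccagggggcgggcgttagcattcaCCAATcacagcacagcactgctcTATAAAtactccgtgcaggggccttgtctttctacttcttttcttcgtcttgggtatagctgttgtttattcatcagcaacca

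Promoters of 75 of the 89 genes were found in the RefSeq table. Of 62 promoters of 61 clustered genes, 53 (85.5%) held a CCAAT box, 35 (56.5%) a TATA box and 29 (46.8%) both. Among 14 variant promoters the numbers were 9 (64.3%), 1 (7.14%) and 1 (7.14%), and the gene with both was H3f3b. Over all 32851 promoters of the same length the shares were 37.4%, 13.6% and 5.31%. Clustered genes at 0 counts in all 4 libraries and those with counts in all 4 were set side by side. A CCAAT box stood in 34 of 40 promoters of the former (85%) and 9 of 10 of the latter, and a TATA box in 25 (62.5%) and 7 (70.0%). A further motif, the E-box CANNTG, stood in 67.7% of clustered, 64.3% of variant and 72.3% of all promoters. Both strands were searched, and an E-box may overlap a CCAAT box. These are matches of letters, not measured binding sites.

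H3 counts in these poly(A)-selected libraries came mostly from the genes for H3.3, the variant that is placed in chromatin without replication. H3f3b (chr11:116021912-116027962, minus strand) stood at 494.8, 472.5, 485.2 and 441.1 CPM, with knockdown 2 the lowest and overlapping groups. Its log2 fold change was -0.06 (SE 0.08, 95% interval -0.23 to 0.10, edgeR adjusted p 0.948). H3f3a, which encodes the same protein, stood at 122.9, 137.2, 135.6 and 127.9 CPM, a log2 fold change of 0.02 (SE 0.11, edgeR adjusted p 0.987). Per kb of exon, H3f3b exceeded H3f3a by 4.4-fold ± 0.486 in the controls and 4.14-fold ± 0.108 in the knockdowns. H3f3b and H3f3a together held 97.3%, 95.8%, 94.1% and 98.6% of the H3 signal per kb. H3f3a shares 22.8% of its exon bases with H3f3aos on the opposite strand and with Gm17275, and the sources used here do not give whether counting used the strand, so a part of its reads cannot be assigned with certainty. H3f3aos itself had 38 counts in control 1 and 0 in the others.

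The 12 clustered H3 genes, which encode the replication forms H3.1 and H3.2, summed to 3.63, 8.18, 11.7 and 1.95 CPM per kb, and 8 of them had 0 counts. Hist1h3f stood at 3.69, 2.83, 1.95 and 0.56 CPM, both knockdowns below both controls, with a log2 fold change of -1.32 (SE 0.84) and an edgeR adjusted p of 0.858. The value was -2.55 without knockdown 1 and -0.75 without knockdown 2. Hist1h3g had 0, 109, 184 and 0 counts, so a library of each group had none. Hist1h3e had 0, 31, 53 and 31 counts. The pseudogene H3f3c, of which 73.8% of stretches are shared with other genes, had 32, 8, 17 and 10 counts.

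H2A was the family in which clustered genes took the largest part among H1, H2A and H3. The variant genes held 86.1%, 71.1%, 90.7% and 74.4% of H2A signal per kb, so both libraries numbered 2 were lower than both numbered 1. H2afz, which encodes H2A.Z, stood at 43.7, 43.9, 47.5 and 37.1 CPM, and H2afv, which encodes the second form of H2A.Z, at 22.9, 10.9, 14.7 and 14.4 CPM. In H2afv the controls bracketed the knockdowns. H2afx, whose product is phosphorylated at DNA breaks, stood at 19.8, 18.9, 15.4 and 20.2 CPM.

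The macroH2A genes, whose products carry a large globular extension, were H2afy at 16.5, 16.9, 16.7 and 19.1 CPM and H2afy2 at 5.37, 8.67, 7.40 and 4.08 CPM. H2afj stood at 9.31, 11.5, 8.93 and 7.57 CPM and was the only tested variant gene with both knockdowns below both controls. Its log2 fold change was -0.32 (SE 0.40), with an edgeR adjusted p of 0.948. The 3 genes H2afb1, H2afb2 and H2afb3, for short H2A forms known from testis, had 0 counts in every library, as did the pseudogenes H2afy3 and H2af-ps.

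Among 20 clustered H2A genes, all with exons that overlap another annotated gene, 16 had 0 counts in all 4 libraries. Hist1h2aa, the gene of TH2A, a histone known from testis and oocyte, stood at 1.55, 6.42, 1.71 and 4.92 CPM (70, 263, 73 and 176 counts), high in both libraries numbered 2. Of its exon bases, 33.1% overlap Gm44344 on the other strand. Its partner gene for TH2B, Hist1h2ba, had 68 counts in control 1 and 0 elsewhere. Hist1h2ac stood at 1.72, 2.34, 1.79 and 2.23 CPM, and Hist1h2al, annotated as a pseudogene, at 1.70, 2.05, 0.26 and 1.62 CPM.

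H2B had no member in the variant class, and a single gene held most of its signal in these poly(A)-selected libraries. Hist1h2bc (chr13:23684199-23692908, plus strand) stood at 35.6, 43.2, 47.6 and 27.4 CPM, with the highest and the lowest value both in knockdown libraries. Its log2 fold change was -0.04 (SE 0.25, 95% interval -0.58 to 0.49, edgeR adjusted p 0.989). It held 73.9%, 92.1%, 87.5% and 69.0% of H2B signal per kb, and 49.3%, 57.5%, 58.3% and 41.2% of all counts on the clustered class. Of the 18 other H2B genes, Hist3h2ba stood at 2.87, 1.81, 2.91 and 4.69 CPM and Hist1h2be at 0.71, 1.22, 1.5 and 0.45 CPM. Another 11 had 0 counts, among them Hist2h2be, whose 2620-nt model shares no stretch with other genes.

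H4 likewise has only clustered genes, all for the same protein, and none stood out. They summed to 8.32, 10.6, 10.3 and 16.5 CPM per kb. Hist1h4i stood at 2.65, 2.83, 2.79 and 4.52 CPM and Hist2h4 at 4.6, 0.85, 3.24 and 4.41 CPM. Hist1h4a had 45, 100, 9 and 20 counts, both knockdowns below both controls (log2 fold change -2.18, SE 1.23, edgeR adjusted p 0.840). It was -1.43 without control 2 and -2.98 without knockdown 2. Hist1h4h had 0, 32, 72 and 28 counts, and 7 of the 13 H4 genes had 0 throughout.

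**Figure D2:**
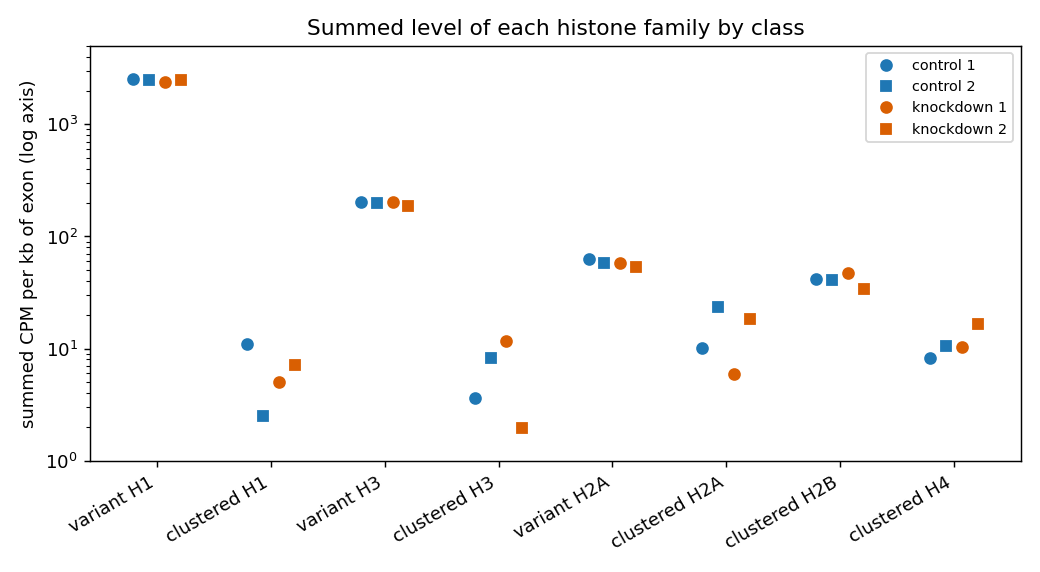
Summed level per kb of exon (log axis) of each histone family, split by class, with a point for each of the 4 libraries. The variant sums of H1 (2387 to 2516) and H3 (185.4 to 203.3) lie far above the clustered sums of the same families, and within each clustered sum of H1, H2A and H3 the libraries of a group lie apart.

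Ranked by mean CPM per kb of exon over the 4 libraries, H1foo (2425) and H3f3b (159) each stood clear of the next gene in every library. They were followed by H3f3a (37.4), Hist1h2bc (33.3), H2afz (24.2) and H1f0 (18.9), among which the ranges of neighbours overlapped. Below H1f0 came H1fx (13.7) and H2afx (13.4), then H2afv (9.64) and Hist1h2aa (9.36), again with overlapping ranges. Hist1h2aa, the second clustered gene in this order, varied from 3.97 CPM per kb in control 1 to 16.5 in control 2, so its place differs between libraries.

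Most clustered genes were not detected. Of 70, 44 had 0 counts in all 4 libraries and 13 had counts in all 4, whereas of the 19 variant genes 6 had 0 throughout and 12 had counts in all 4. Clustered genes are near-copies of each other, so the sequence of each gene was compared with all other annotated transcripts, as the share of its 50-nt stretches that occur in another gene. A stretch also counts as shared where another annotated gene overlaps the same exon on either strand. Exons of 26 of the 70 clustered genes overlap another gene, among them all 20 H2A genes, and 5 genes are overlapped in full. The sources used here do not give how reads with several alignments, or in exons of overlapping genes, were counted. The counts of a gene made of shared or overlapped stretches are therefore uncertain, and the parts of near-copies and of overlap were not separated. Among the 67 protein-coding clustered genes, the median share was 69.3% for the 42 at 0 counts and 19.2% for the 12 with counts in all 4 libraries. Of 34 genes with over 50% shared, 29 were at 0 and none had counts in all 4. Of 33 genes with at most 50% shared, 13 were at 0 and 12 had counts in all 4.

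The stem-loop was searched on the transcript strand as arms of 6 bases, GGNNNT and ANNNCC, that pair with each other around a loop of 4 bases opening with T. It was found in 46 of the 67 clustered coding genes, in 1 variant gene, H2afx, and in 97 of 21795 other protein-coding genes (0.445%). In coding transcripts of the histone genes only matches after the coding part were kept. The other genes were searched over their whole transcripts, so the searched regions differ. The most common form occurs in 26 of the genes, and the forms of genes with counts here are shown from GENCODE M21 transcripts, as DNA letters, with the loop in capitals.
Hist1h1d: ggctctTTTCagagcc
Hist1h3f: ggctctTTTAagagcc
Hist1h3g: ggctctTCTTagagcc
Hist1h4a: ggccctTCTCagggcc
Hist1h4c: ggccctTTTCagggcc
Hist2h4: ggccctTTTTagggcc
H2afx: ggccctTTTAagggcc

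The 3 forms from H1 and H3 genes share the arms ggctct and agagcc, and the H4 forms shown and that of H2afx share the arms ggccct and agggcc around different loops. The gene models were sorted by where they end. In 23 genes the model ended within 100 nt of the loop, where the mature message of a replication gene ends, and 5 of these had any counts and 0 had counts in all 4 libraries. In another 23 the model ran further past the loop, and 15 had counts, 9 of them in all 4. The remaining 21 models held no stem-loop, in 15 of them with a length that is a multiple of 3 as in models of the coding part alone, and 5 had counts, 3 of them in all 4.

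Shared sequence and gene model moved together, with a median shared share of 60.4% in genes ending at the loop and 24.6% in genes running past it. Within the genes of at most 50% shared sequence, 2 of 7 that end at the loop had counts, 14 of 20 that run past it and 4 of 6 without a loop. Gene length differed too, with median models of 485, 1249 and 405 nt in the 3 kinds, and the separate parts of length, shared sequence and tail in these counts were not tested. Hist1h2bc belongs to the models without a stem-loop. Its model has 2 exon blocks over 8710 bases and 1156 nt of exon, whereas 65 of the 70 clustered genes have a single block. H2afx, by contrast, has the loop and a model that runs 822 nt past it.

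**Figure D3:**
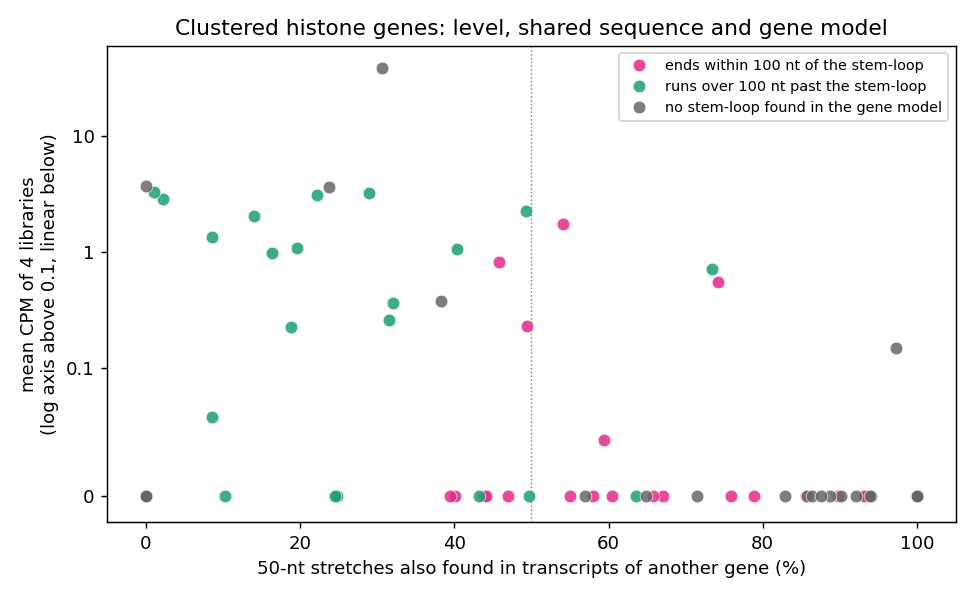
Mean CPM of the 4 libraries (log axis above 0.1, linear below) of the 67 protein-coding clustered genes against the percent of their 50-nt stretches found in another gene, coloured by where the gene model ends. To the right of the dotted line at 50%, 29 of 34 genes lie at 0, and the genes with counts to its left are mostly models that run past the stem-loop.

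No histone gene passed the test between knockdown and control. Of the 89 genes, 31 passed the filter on low counts, 19 clustered and 12 variant, and 0 had an adjusted p under 0.05 by edgeR's quasi-likelihood test. DESeq2 called 1 histone gene, where it called 1.86% of all 16389 genes with an adjusted p, and limma-voom called 0. Over all 15868 genes tested with edgeR, the share called was 0.0063%, which is Parp12 alone (log2 fold change -7.51, edgeR adjusted p 1.27e-07, 0.280 by limma-voom). At an unadjusted p under 0.05, 1 of the 31 was higher in the knockdown and 0 were lower, where 2.94% and 2.57% of all tested genes were, or 5.51% in either direction. Nothing in the labels ties the libraries to separate animals, and the p-values cover no more than the spread among these 4 libraries, which may be technical.

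Among the 12 tested variant genes, 3 had a log2 fold change above 0 and 9 below, with a median of -0.05. Among the 19 tested clustered genes, 10 were above and 9 below, with a median of 0.10 that was -0.18 when genes under 1 CPM were filtered out. Over all tested genes 8004 (50.4%) were above and 7864 below, with a median of 0.00. In 4 of the 31 genes both knockdowns lay above both controls and in 4 both lay below, or 12.9% each, against 18.0% and 16.8% of all tested genes. The higher ones were Hist3h2ba, Hist1h3e, Hist1h4c and Hist1h4h, and the lower ones Hist1h2al, Hist1h3f, Hist1h4a and H2afj. Hist1h4c, at 0 in both controls, passed the filter through the knockdown libraries alone. It could therefore only count as higher, both here and among the 10 clustered genes above 0.

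The precision differed between the classes with their level. The 95% interval of the log2 fold change had a median width of 1.25 for the variant genes, whose median level was 17.9 CPM, and 4.22 for the clustered genes, at 1.75 CPM. A 2-fold change in either direction lay outside the interval in 8 of 12 variant genes and in 1 of 19 clustered genes, Hist1h2bc, against 7416 (46.7%) of all tested genes. Between 10 and 100 CPM this held for 5 of 6 variant genes, for the single clustered gene and for 81.8% of all genes. Between 1 and 10 CPM it held for 0 of 13 clustered genes, 0 of 2 variant genes and 1.70% of all genes. For the other 18 clustered genes, the interval did not exclude a 2-fold change.

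**Figure D4:**
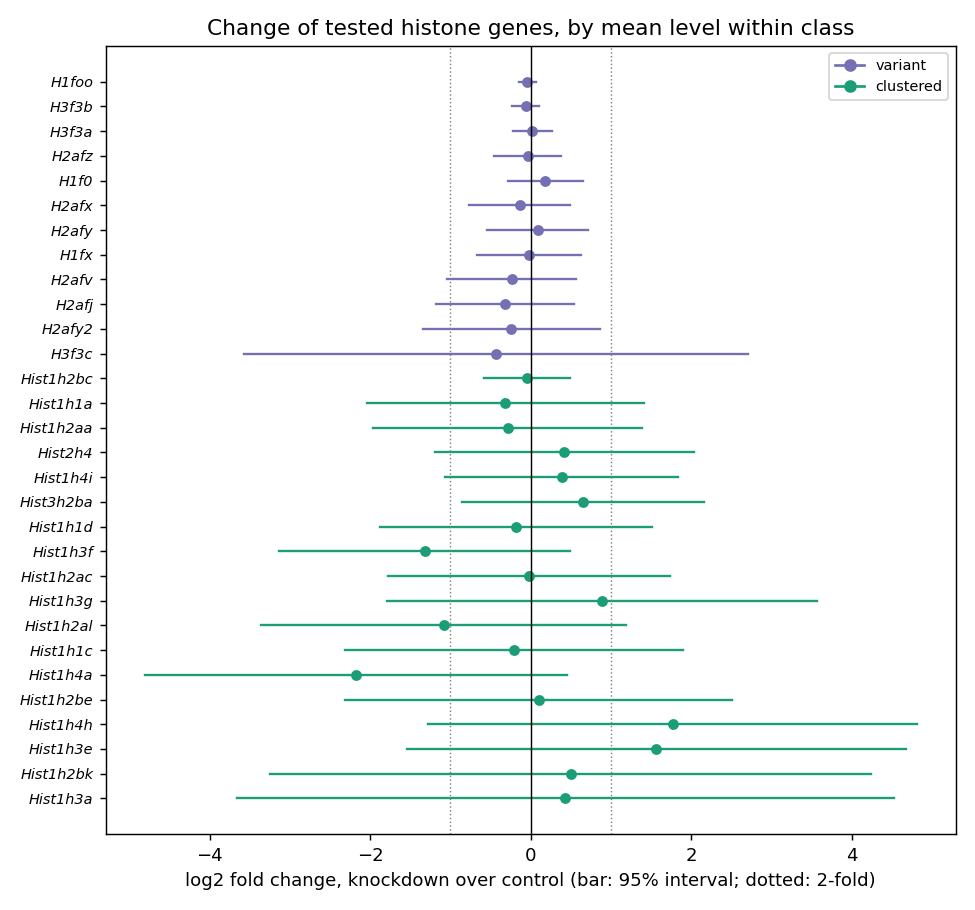
Log2 fold change, knockdown over control, of 30 of the 31 tested histone genes with its 95% interval, ordered by mean level within each class; dotted lines mark a 2-fold change. Hist1h4c, at 0 in both controls, is left out since its fitted value is no bound. The intervals of 8 variant genes and of Hist1h2bc lie between the dotted lines, and every interval drawn includes 0.

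Hist1h4c, an H4 gene at chr13:23697635-23698454 (minus strand), was the 1 gene with an unadjusted p under 0.05. Its counts were 0 and 0 in the control libraries against 16 and 141 after knockdown, or 0.38 and 3.94 CPM. It therefore passed the filter through the knockdown libraries alone, and most of its signal came from knockdown 2. Set against a control level of 3 counts per library, the knockdown mean was at least 30.9-fold higher, and without knockdown 2 at least 5.38-fold higher. The edgeR adjusted p was 0.835, whereas DESeq2 gave an adjusted p of 0.00699. Over 11 alternatives the adjusted p ran from 0.00699 to 0.994.

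Uneven counts within a group were tallied as well. The 18 clustered genes of this tally include Hist1h4c, whose knockdown libraries differed by more than 2-fold. Of the 18 tested clustered genes under 10 CPM, 4 had 0 counts in 1 library of a group and at least 30 in the other (22.2%), as did 18.6% of the 7436 tested genes of that level. The controls differed by more than 2-fold in 9 of these 18 genes (50%) and the knockdowns in 10 (55.6%), against 49.2% and 48.1% of all tested genes of that level. Among the 12 variant genes, most of them at higher levels, the numbers were 2 and 0.

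Of 30 genes that make, end or degrade histone messages found in the table, 29 were tested and 0 called, 15 above 0 and 14 below with a median log2 fold change of 0.01. The 2-fold limit lay outside the interval in 26 of them. The remaining gene, Rnu7, which encodes the small RNA of histone 3′ end processing, had 0 counts in all 4 libraries. As the libraries hold poly(A)-selected RNA, that 0 does not show its absence from the oocyte. Slbp, whose product binds the stem-loop, stood at 1181, 1083, 1124 and 1112 CPM, with overlapping groups and a log2 fold change of -0.02 (edgeR adjusted p 0.978). Zfp473, whose product takes part in histone 3′ end processing, stood at 197.1, 203.1, 178.7 and 247.9 CPM. The cleavage and polyadenylation genes Fip1l1 and Wdr33 had log2 fold changes of 0.05 and -0.09.

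Upf1, an RNA helicase of histone message decay, had the smallest p of the list. Its level was 58.3, 52.8, 41.1 and 48.2 CPM, both knockdowns below both controls, with a log2 fold change of -0.33 and an edgeR adjusted p of 0.835.

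Of 43 histone chaperone and variant deposition genes, all were tested and 0 called, with 16 above 0 (50.4% of all tested genes were), 27 below and a median log2 fold change of -0.03. The oocyte nucleoplasmin gene Npm2 led them at 1659, 1725, 1650 and 1715 CPM, with overlapping groups and a log2 fold change of -0.01 (edgeR adjusted p 0.987). The others among the 4 most abundant were Rbbp7, Nasp, whose product holds H3 and H4, and Npm1, with log2 fold changes of 0.01, 0.00334 and 0.09. At an unadjusted p under 0.05, 2 of the 43 were lower and 0 higher, where 2.57% and 2.94% of all tested genes were. The 2 were the remodelling genes Ep400 (385.7, 370.5, 309.0 and 352.3 CPM, log2 fold change -0.20) and Ino80 (30.6, 25.8, 19.7 and 17.7 CPM, log2 fold change -0.59). In both, the knockdowns lay below the controls, and the edgeR adjusted p was 0.835.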

How the data were processed

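Per the labels' protocols, poly(A) beads were used to isolate messenger RNA from the total RNA of oocytes before the libraries were built. The values are raw counts, whole numbers per gene as the authors deposited them. The file headers have the featureCounts layout, with coordinates of exons and their summed length for each gene. The submitters' processing notes list DESeq2 1.28.1, featureCounts 2.0.0, STAR 2.7.5b, Trim Galore 0.6.4 and mm10, without their roles. The sources used here do not give strandedness, the handling of multiply aligned reads, or the unit counted (reads or fragments).

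Groups and replicate numbers came from the sample titles. Counts were tested in R 4.3.3 with edgeR 4.0.16 (filterByExpr with a minimum count of 10 and a total of 15, TMM factors of 0.991 to 1.01, glmQLFit robust, glmQLFTest, two-sided, group as the only term). The p-values were adjusted by Benjamini-Hochberg over all 15868 tested genes at 0.05, and intervals are 95% intervals. The test was first tested on simulated data, with changes placed only in genes of at least 10 CPM. It was thus not checked at the lower levels of most clustered genes. Alternatives were other scaling factors, no filter, a filter at 1 CPM, DESeq2 1.42.0, limma-voom (limma 3.58.1), a replicate block, and the removal of each library in turn. Further alternatives, edgeR's legacy fit and the variant share without H1foo, were chosen after seeing the data.

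Sequences were compared over GENCODE M21 transcripts, in stretches of 50 nt on either strand, and all 89 symbols had coordinates there. Limits from 3 counts cover counting error alone, as PCR copies are not independent molecules. The members, gene lists and tests were chosen with earlier results of these data known. Named were Parp12, every histone gene with a mean of at least 1 CPM or a call, the 2 largest and 2 smallest log2 fold changes among tested genes under 1 CPM, and of each pathway list the calls, the 4 most abundant genes and the smallest p. Other genes named, among them those at 0 or with counts in few libraries and Ino80, were chosen after their values were seen.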

Additional observations from a re-analysis of the deposited data

How the results depend on the processing

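With 2 libraries a group, the spread behind each test is itself poorly known, and 58 of 89 histone genes had too few counts to be tested. Over all genes, 1 was called with either other scaling, with no filter, with the legacy fit and with the replicate number as a block. A filter at 1 CPM gave 8, DESeq2 305 and limma-voom 0 (747 at an unadjusted p under 0.05), and leaving out a library gave 1 to 2, with 2 without knockdown 1. Of histone genes, 0 were called except by DESeq2, which called 1, Hist1h4c, with an adjusted p of 0.00699 (0.820 or more in the other settings). The replicate numbers were not found to pair the libraries, since the deviations of same-numbered libraries correlated with r = 0.0148 over 8432 genes and there are only 2 pairs. With the replicate block the median log2 fold change was 0.09 for clustered and -0.05 for variant genes.

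The clustered median was 0.10 as reported, 0.25 without a filter, 0.22 with DESeq2, -0.18 with the filter at 1 CPM, and 0.062 to 0.43 when a library was left out. The variant median was -0.05 as reported and -0.20 to -0.023 when a library was left out. The variant share of histone counts was 98.0% over the 4 libraries, 97.1% per kb and 91.3% without H1foo. Of 473 log2 fold changes of named genes under an alternative, 40 changed sign, none of a gene past the threshold, and the cause was not tested. With limma-voom these were Hist1h1a (0.38) and Hist1h2be (-0.072), and Parp12 had an adjusted p of 0.280 there. With a library left out, the lowest and highest values were -0.00067 and 0.095 for Fip1l1, -0.059 and 0.42 for H1f0, -0.20 and 0.11 for H1fx, -0.66 and 0.43 for H2afv, -0.33 and 0.064 for H2afx, and -0.0048 and 0.19 for H2afy. They were -0.77 and 0.12 for H2afy2, -0.24 and 0.12 for H2afz, -0.045 and 0.089 for H3f3a, -0.13 and 0.0015 for H3f3b, and -1.05 and 0.82 for H3f3c. Among clustered genes they were -1.12 and 2.10 for Hist1h1a, -0.53 and 0.16 for Hist1h1c, -2.0 and 0.50 for Hist1h1d, -1.17 and 1.02 for Hist1h2aa, and -0.22 and 0.19 for Hist1h2ac. Hist1h2bc ran from -0.52 to 0.27, Hist1h2be from -1.09 to 0.66, Hist1h3g from -8.69 to 9.59 and Hist2h4 from -0.30 to 2.15. Among pathway genes, Nasp ran from -0.014 to 0.022, Npm2 from -0.038 to 0.020, Rbbp7 from -0.069 to 0.089, Slbp from -0.093 to 0.057, Wdr33 from -0.19 to 0.0083 and Zfp473 from -0.16 to 0.31.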

Other observations

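Hist1h2bc and Hist1h2ac start 251 bases apart on opposite strands of chromosome 13, and their levels were far apart. Per kb of exon, Hist1h2bc exceeded Hist1h2ac by 42.0-fold ± 3.35 in the controls and 41.8-fold ± 21.9 in the knockdowns (SD, n = 2 each). Their exon lengths differ, with 1156 nt for Hist1h2bc and 2482 nt for Hist1h2ac, so the ratio is smaller in CPM. The means over the 4 libraries were 38.4 and 2.02 CPM. Hist1h2ac has a stem-loop in its gene model, which runs 2010 nt past the loop, and Hist1h2bc has none. The part of these features in the difference was not tested. Hist1h2bc was also the only clustered gene above 10 CPM.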
